A study of Homo sapiens with 6 samples.

Results

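Membrane mucins are large glycoproteins that stay anchored in the apical surface of epithelial cells. A long extracellular stretch, rich in serine and threonine and often built of tandem repeats, carries dense O-linked glycans, and a single transmembrane segment joins it to a short cytoplasmic tail. In the intestine they form the glycocalyx over the microvilli, whereas the secreted mucins of goblet cells form the mucus gel above it. Their O-glycans are started in the Golgi by GalNAc-transferases, and their extracellular part can be shed by surface proteases.

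The 9 genes listed as membrane mucins of colon epithelium were MUC1, MUC3A, MUC4, MUC12, MUC13, MUC15, MUC16, MUC17 and MUC20. A gene was taken where an Ensembl identifier of the table of normalised read counts carried its symbol. Of the 9 genes, 6 matched a row among 59192 features, namely MUC3A, MUC4, MUC12, MUC13, MUC15 and MUC17. MUC1, MUC16 and MUC20 matched no Ensembl row and were not analysed here. The table also held 33265 loci that a transcript assembler had named, which were not searched for mucins, and 62.6% of the protein-coding genes of the GENCODE 29 annotation had an Ensembl row.

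RNA sequencing compared SW480 cells, a human colorectal adenocarcinoma line, with and without HPSE knockdown, in 3 libraries per cell line. Both lines stably carried a Cas9 vector with puromycin resistance and a guide RNA vector with EGFP. SW480-NC received a control guide, and SW480-45, which the labels describe as the HPSE-knockdown line, was taken as the line made with the KD1 guide against HPSE. No isolation of single clones was described, and only 1 guide against HPSE was sequenced. HPSE encodes heparanase, the endoglycosidase that cleaves heparan sulfate.

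The libraries held 33221323 to 39802365 reads assigned to features. HPSE had 136, 172 and 146 normalised counts in SW480-45 and 269.9, 295 and 246 in SW480-NC. The 2 lines did not overlap, and the knockdown line kept 56.1% of the control RNA level. The log2 fold change was -0.83 (95% interval -1.17 to -0.50), with an adjusted p of 0.0547 in limma. The RNA of the targeted gene itself thus fell just short of the threshold of 0.05. These counts do not measure HPSE protein, for which the paper describes an efficient knockdown by western blot. The line was checked against markers of colon epithelium: KRT8 and EPCAM were abundant, whereas CDX2 averaged 28.8 and 34.0 normalised counts in the 2 lines and CDH17 had reads in 1 library only.

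The 6 measured membrane mucins lie at 4 places in the genome (GRCh38, GENCODE 29). MUC3A (ENSG00000169894, chr7:100949555-100968346), MUC12 (ENSG00000205277, chr7:100969623-101018949) and MUC17 (ENSG00000169876, chr7:101020072-101058745) follow each other on the plus strand of chromosome 7, with 1276 bases between MUC3A and MUC12 and 1122 bases between MUC12 and MUC17. MUC13 (ENSG00000173702, chr3:124905442-124953819) and MUC4 (ENSG00000145113, chr3:195746765-195812277) are on the minus strand of chromosome 3, far from each other. MUC15 (ENSG00000169550, chr11:26559033-26572233) is on the minus strand of chromosome 11, inside ANO3 on the opposite strand.

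Tandem repeats bear on how reads of these genes are counted, since a short read from a repeat can match several places in the gene. How such reads were treated is not given in the sources used here. The transcript with the longest coding sequence was taken for each gene from GENCODE 29, and each 50-base window was looked up again in the same transcript. In MUC12, 61.5% of the windows recurred within the transcript, against 28.3% in MUC4, 8.60% in MUC17, 1.86% in MUC3A and 0 in MUC13 and MUC15. The units below are shown because they are the commonest exact copies at the repeat length of MUC12, MUC4 and MUC3A. They are printed along the transcript in lower case, with no part in capitals.
MUC12 (chr7:100994237-100994320, plus strand, exon 5 of 15): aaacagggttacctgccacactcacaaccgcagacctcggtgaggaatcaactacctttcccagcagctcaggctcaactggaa
MUC4 (chr3:195788034-195788081, minus strand, exon 2 of 25): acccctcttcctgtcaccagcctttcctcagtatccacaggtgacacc
MUC3A (chr7:100954045-100954095, plus strand, exon 2 of 12): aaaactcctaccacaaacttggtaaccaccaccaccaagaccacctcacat

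The MUC12 unit of 84 bases occurred in 4 exact copies, the MUC4 unit of 48 bases in 14 and the MUC3A unit of 51 bases in 2. Each of these units lies in the longest exon of its gene, which measured 14935, 12708 and 8805 bases, respectively. A shift of the transcript by 1 unit length left 54.3% of the bases identical in MUC12, 62.1% in MUC4 and 42.0% in MUC3A. In MUC17 a shift by 177 bases left 69.5% identical, although no stretch of that length recurred exactly. Among the genes with no row, 70.3% of the windows of MUC20 were also found in transcripts of other genes, mainly MUC20P1 and MUC20-OT1, and 42.4% of those of MUC1 recurred within MUC1.

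**Figure D1:**
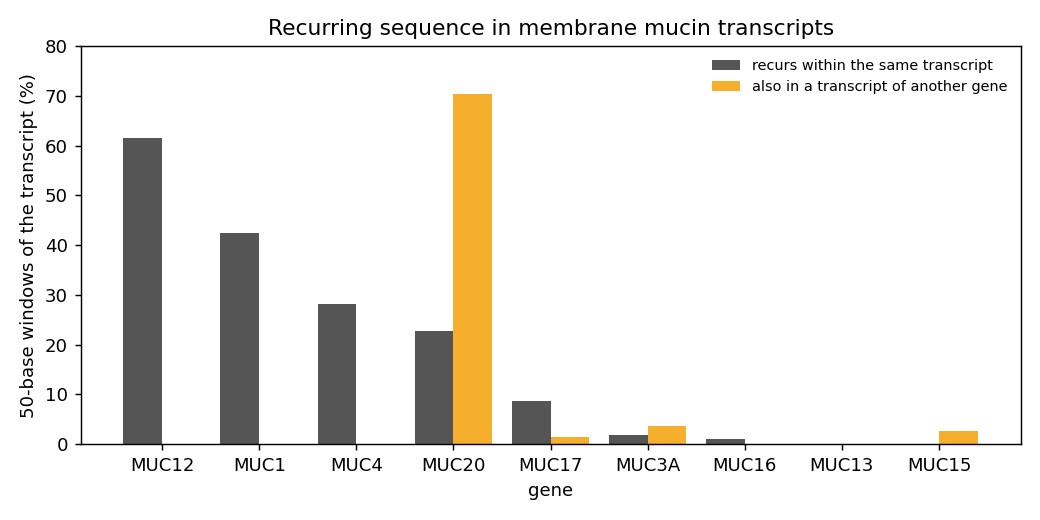
Share of 50-base windows of the transcript (%, vertical axis) for the 9 membrane mucins: grey bars count windows that recur within the same transcript, yellow bars windows also found in a transcript of another gene. MUC12 stands highest for windows within its own transcript (61.5%) and MUC20 for windows shared with other genes (70.3%), whereas MUC13 has neither.

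MUC13, a short membrane mucin of the intestinal surface, was the most abundant member. Its normalised counts were 2111, 1874 and 2018 in SW480-45 and 1873, 1892 and 1870.4 in SW480-NC. SW480-45 replicate 2 lay among the control libraries and the other 2 lay above them, so the lines overlapped. The means were 2001 ± 119 in SW480-45 and 1879 ± 11.7 in SW480-NC (SD, n = 3), a log2 difference of 0.09 (95% interval -0.09 to 0.27), with an adjusted p of 0.606 in limma.

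MUC3A, which anchors in the brush border membrane, came next. It had 1066, 1278 and 982 normalised counts in SW480-45 and 1172, 1135 and 1333 in SW480-NC. SW480-45 replicates 1 and 3 were below every control library, but replicate 2 was above 2 of them, so the lines overlapped. The means were 1109 ± 153 and 1213 ± 105 (SD, n = 3), with a log2 difference of -0.14 (95% interval -0.42 to 0.15) and an adjusted p of 0.623 in limma.

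MUC12, the neighbour of MUC3A, was the only tested member whose lines did not overlap. It had 298, 396 and 367 normalised counts in SW480-45 and 401, 409 and 440.0 in SW480-NC. Every knockdown library was below every control library, although SW480-45 replicate 2 and SW480-NC replicate 1 were close. The knockdown mean was 85.0% of the control mean, with 354 ± 50.4 against 416 ± 20.9 (SD, n = 3). The log2 difference was -0.24 (95% interval -0.55 to 0.07), with an adjusted p of 0.411 in limma, and the two-sided exact permutation p of 0.1 is the smallest that 3 libraries against 3 allow. SW480-45 replicate 1 was the lowest, and without it the log2 difference was -0.12. Of all 21703 features tested, 23.4% did not overlap between the lines in either direction and 12% were lower in every knockdown library, so 1 of 4 members is close to the share among all features. The bulk libraries cannot tell fewer cells with MUC12 from less MUC12 RNA per cell.

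MUC4, a membrane mucin with an extracellular part that resembles epidermal growth factor and that can bind ERBB2, was low. Its normalised counts were 52.7, 56.9 and 52.8 in SW480-45 and 54.4, 41.5 and 46.7 in SW480-NC. SW480-NC replicate 1 lay inside the knockdown range, and the other controls lay below it. The means were 54.1 ± 2.40 and 47.5 ± 6.48 (SD, n = 3), with a log2 difference of 0.19 (95% interval -0.27 to 0.65) and an adjusted p of 0.669 in limma. MUC4 had 169 reads in the knockdown line and 139 in the control line. A change of up to 1.57-fold upward or 0.831-fold downward lay within the limma interval.

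MUC17 and MUC15 were near the limit of detection and, with means under 10 normalised counts, were not tested in the comparison across features. MUC17, a membrane mucin of the enterocyte brush border, had 8, 8 and 8 reads in SW480-45 and 0, 10 and 0 in SW480-NC. MUC15, first known from milk fat globule membranes, had 6, 0 and 2 reads in SW480-45 and 0 in each SW480-NC library. A count of 0 allows up to 3 reads, and both lines overlapped for each gene, with an exact permutation p of 0.4 in both cases. No fold change is given for either gene. ANO3, which spans MUC15 on the other strand, had 8 to 11 reads in every library, and 80 of the 3069 windows of MUC15 (2.61%) also occur in ANO3 transcripts. Whether strand was used in counting is not given in the sources used here, so reads from that stretch cannot be told apart.

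**Figure D2:**
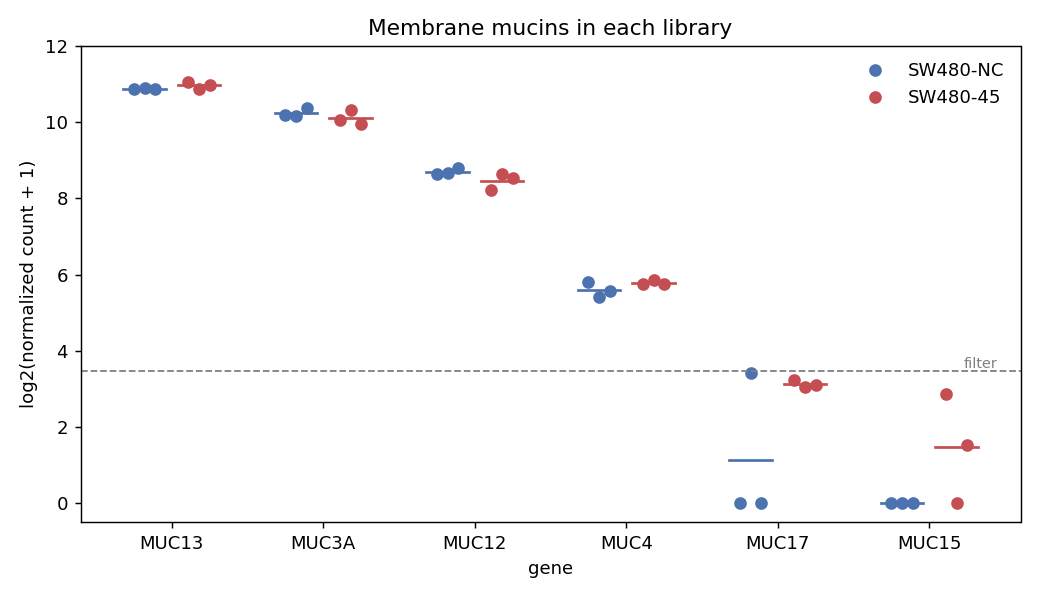
Level of the 6 measured membrane mucins on the scale log2(normalised count + 1): each point is 1 library (blue SW480-NC, red SW480-45), short lines are group means, and the dashed line marks the minimum mean of 10 normalised counts for testing. The genes are ordered by level, and MUC12 is the only member above the dashed line whose points of the 2 lines do not overlap.

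None of the 4 tested membrane mucins passed an adjusted p of 0.05 in limma, and none had an unadjusted p under 0.05. By the same rule, 174 of 21703 features (0.802%) passed, 72 of them higher in SW480-45 (0.332%) and 102 lower (0.47%). At an unadjusted p under 0.05 the share was 16.2%. edgeR and DESeq2 on the reads also called 0 of the 4 members. A share of 0 in 4 genes is near the background, and a p that misses the threshold does not show that the lines have equal levels. The members went in both directions: MUC13 and MUC4 had values above 0, MUC3A and MUC12 below 0. Their median log2 difference was -0.02, against -0.0048 over all features tested, of which 25% lay below -0.19 and 25% above 0.22.

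**Figure D3:**
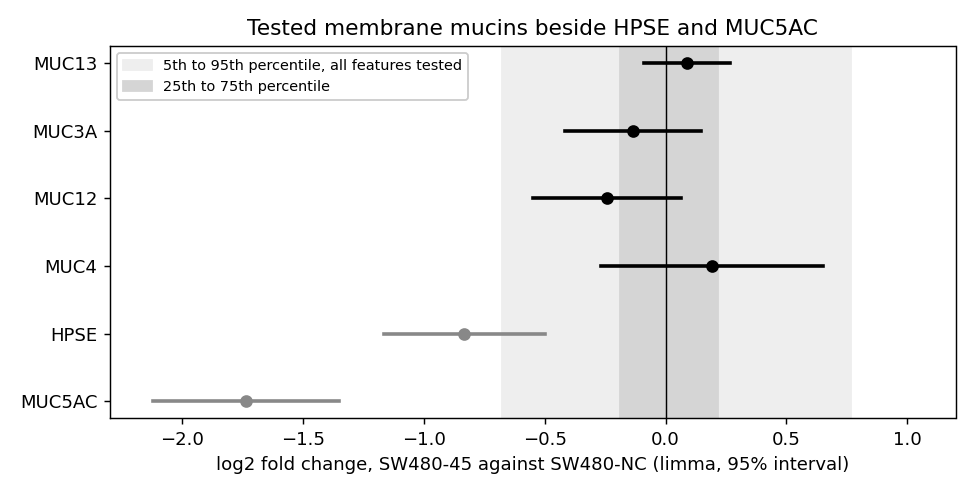
Log2 fold change of SW480-45 against SW480-NC (horizontal axis) with 95% intervals from limma: black for the 4 tested membrane mucins, grey for HPSE and the secreted mucin MUC5AC, and shaded bands for the range of all features tested. The intervals of all 4 membrane mucins cross 0, and those of HPSE (-1.17 to -0.50) and MUC5AC (-2.12 to -1.35) do not.

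The spread between the libraries of a line was also described for each member, whereas the limma intervals use a value moderated over all features. A spread from 3 libraries is itself uncertain, and differences in spread between members or lines were not tested. Reads alone, by Poisson counting, would give a coefficient of variation of 2.33% for MUC13 in SW480-NC, and the 3 libraries differed by 0.621%. In SW480-45 the MUC13 counts varied by 5.97%, above the 2.20% of counting. For MUC12 the control libraries varied by 5.01%, near the 4.96% of counting, whereas the knockdown libraries varied by 14.2% against 5.19%. MUC3A varied by 13.8% in SW480-45 and 8.68% in SW480-NC, both above the 2.94% and 2.91% that counting gives. For MUC4, with about 50 reads a library, counting gives 13.3% and 14.7%, and the libraries differed by 4.43% and 13.6%.

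Levels of different genes were compared after division by the length of the merged exons. MUC13 had 572 ± 34.1 normalised counts per kb in SW480-45 and 537 ± 3.34 in SW480-NC (SD, n = 3). MUC3A followed with 97.5 ± 13.4 and 107 ± 9.26 per kb, MUC12 with 20.7 ± 2.94 and 24.3 ± 1.22, and MUC4 with 2.54 ± 0.113 and 2.23 ± 0.304. The order MUC13, MUC3A, MUC12, MUC4 was the same in 6 of 6 libraries, with no overlap between neighbours. The level per kb dropped 5.43-fold from MUC13 to MUC3A, 4.54-fold from MUC3A to MUC12 and 9.44-fold from MUC12 to MUC4. MUC15 and MUC17, at 0 to 1.78 and 0 to 0.662 per kb, could not be ordered, since MUC15 was above MUC17 in 2 of 6 libraries.

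Among 12622 tested genes with an Ensembl identifier and a length, the mean level per kb of MUC13 was higher than that of 81.3%, and MUC3A was higher than 44.7%. MUC12 exceeded 21.6% and MUC4 1.42% of the genes. These shares depended on the length and on the set of genes. Per kb of the longest transcript, over the same 12622 genes, they were 78.9%, 40.3%, 19.8% and 1.21%, in the same order. Per kb of the longest coding sequence, over 9812 genes, they were 66.1%, 19.3%, 8.01% and 0.357%. EPCAM, the adhesion molecule of epithelial cells, had 6660 to 7457 normalised counts per kb, above the 535 to 603 of MUC13 in every library. The secreted mucin MUC5AC, with 5.29 to 21.8 per kb, lay above MUC4 and below MUC12 in every library. As a choice made after seeing the data, only the windows that occur once in the transcript were also counted as length. MUC12 then stood at 59.9 per kb over all libraries against 106 for MUC3A and 4.15 for MUC4, in the same order. All counted reads stayed in these values, including any from repeats.

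The 3 neighbours on chromosome 7 spanned a wide range of levels. MUC3A had 86.3 to 117 normalised counts per kb, MUC12 17.4 to 25.7 and MUC17 0 to 0.662. None of the ranges overlapped. Within 250 kb of the starts of these 3 genes, 11 other genes were tested, 6 with a value above 0 and 5 below, with a median log2 difference of 0.02, and none passed the adjusted p of 0.05 in limma. Around all 9 members 1 of 36 such genes passed, PBXIP1 near MUC1 (log2 difference 0.51, adjusted p 0.0426 in limma), and this call was lost when any 1 library was left out (adjusted p 0.0652 to 0.170 in limma). MUC12-AS1, antisense to MUC12, matched no row, and AC254629.1, antisense to MUC3A, had 0 to 9 reads per library.

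Of the summed level per kb of the 6 genes, MUC13 made up 82.4% ± 2.55 in SW480-45 and 80.1% ± 1.28 in SW480-NC (SD, n = 3). MUC3A contributed 14.1% ± 2.25 and 15.9% ± 1.19, and MUC12 2.99% ± 0.517 and 3.63% ± 0.137. MUC4, MUC17 and MUC15 together stayed under 1% in every library. These shares hold for the length of the merged exons and depend on that choice. Over all libraries, MUC12 had 22.5 per kb of merged exons and 59.9 per kb of windows that occur once. The same 2 lengths gave 554 and 685 for MUC13. The MUC12 share was 2.42% to 3.43% in the knockdown libraries and 3.52% to 3.78% in the controls, without overlap, whereas the shares of MUC13 and MUC3A overlapped. That share is computed from the MUC12 counts, which already did not overlap, so it is not a separate result. Of all features tested, 23.4% did not overlap in their counts, and the same figure for shares was not determined. The summed level was 674 to 719 normalised counts per kb in SW480-45 and 664 to 680 in SW480-NC, and these ranges overlapped too.

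**Figure D4:**
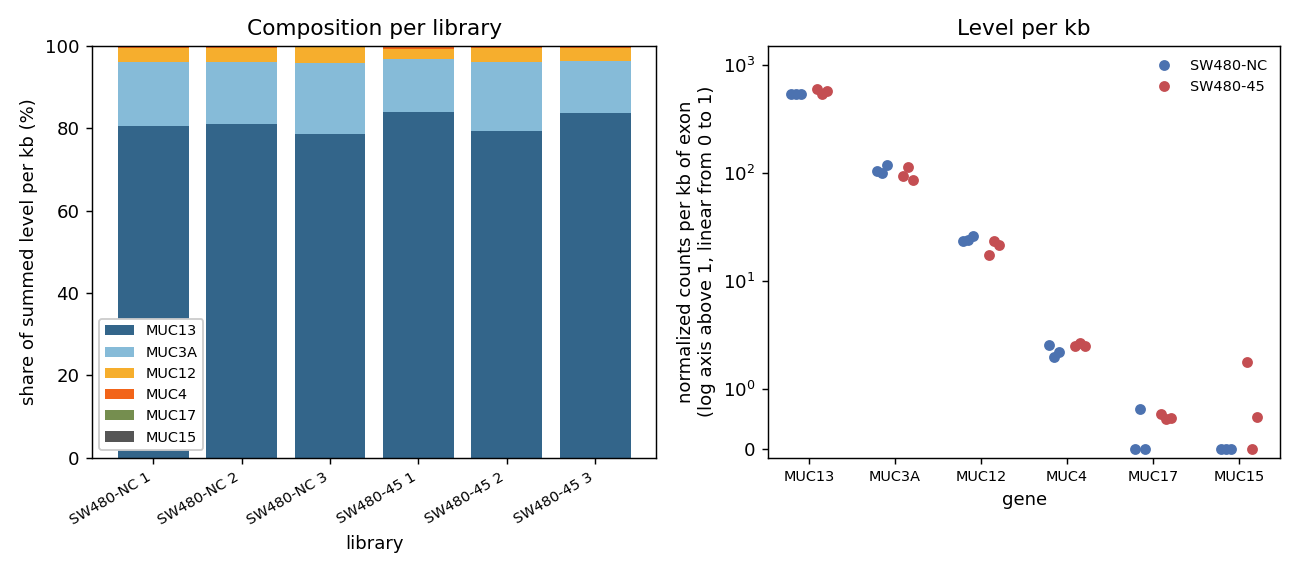
Left, share (%) of each membrane mucin in the summed level per kb of the 6 genes in each library; right, normalised counts per kb of merged exon by gene, 1 point per library (blue SW480-NC, red SW480-45), on an axis that is logarithmic above 1 and linear from 0 to 1. MUC13 fills 78.7% to 83.9% of every bar, and the points of MUC13, MUC3A, MUC12 and MUC4 step down without overlap between genes.

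Ratios between members within a library do not depend on the scaling of that library. All 6 pairs of the 4 tested genes were compared. The log2 ratio of MUC4 to MUC12 was -2.48, -2.78 and -2.78 in SW480-45 and -2.86, -3.27 and -3.21 in SW480-NC. Every knockdown library was higher than every control library, by 0.43 ± 0.16 (difference of means ± SE, n = 3 per line). The log2 ratio of MUC12 to MUC13 was -2.82, -2.24 and -2.45 in SW480-45 and -2.22, -2.21 and -2.09 in SW480-NC. Here the knockdown libraries were lower, by -0.33 ± 0.17, again without overlap. Both ratios had an exact permutation p of 0.1, the smallest possible, and an adjusted p of 0.3 over the 6 pairs. Both contain MUC12, whose own counts did not overlap, so they are not separate from that result. The share of non-overlapping pairs among all genes was not determined.

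The other 4 pairs overlapped between the lines. The MUC3A to MUC12 ratio of the 2 neighbouring genes differed by 0.11 ± 0.13 (SE), and the MUC4 to MUC13 ratio by 0.10 ± 0.14. MUC3A to MUC4 differed by -0.33 ± 0.15 and MUC3A to MUC13 by -0.22 ± 0.17. Exact permutation p-values were 0.2 to 0.5 and adjusted values 0.4 to 0.5. No ratio could pass 0.05 in this design.

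**Figure D5:**
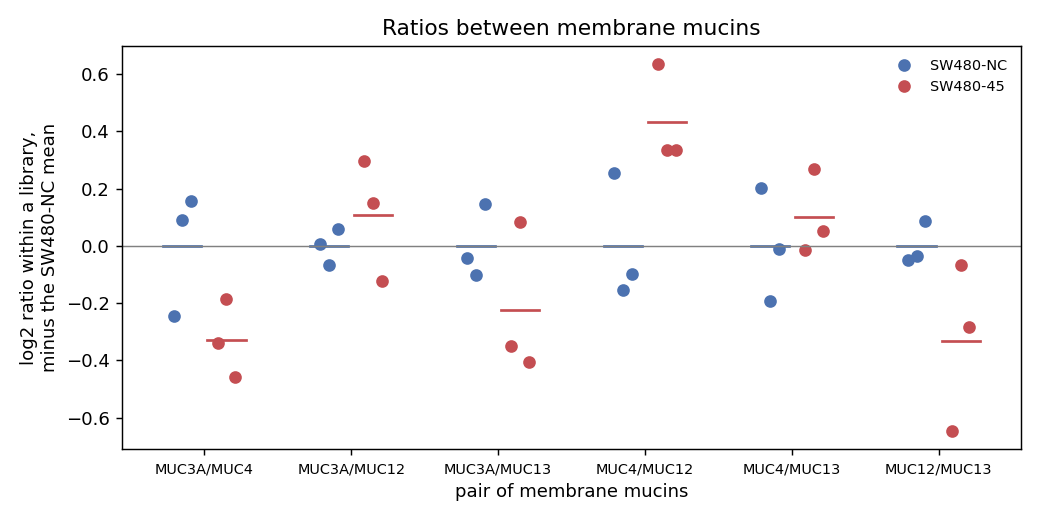
Log2 ratio between pairs of the 4 tested membrane mucins within each library, with the SW480-NC mean of the pair subtracted (vertical axis): points are libraries (blue SW480-NC, red SW480-45) and short lines are group means. The lines separate for MUC4/MUC12 (difference 0.43) and MUC12/MUC13 (difference -0.33), which both contain MUC12, and overlap for the other 4 pairs.

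MUC12 had the smallest adjusted p of the members, so the genes with the most similar profile over the 6 libraries were found for it. Likeness was the root mean square difference of log2(normalised count + 1) after subtraction of each gene's mean, over 9721 other genes with a symbol and a mean of at least 50 normalised counts. The closest were KRT15 (0.030), ACTR3B (0.038) and GPHN (0.042). These 3 genes had log2 differences of -0.26, -0.27 and -0.27, and none passed the adjusted p of 0.05 in limma. Its neighbour MUC3A ranked 765 with 0.14, MUC13 ranked 5463 with 0.24 and MUC4 ranked 6411 with 0.27.

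The promoters of MUC13 and of the 3 neighbours on chromosome 7 are shown because these genes cover the range from the highest level to the limit of detection. They were taken from RefSeq (GRCh38.p14), from 250 bases before to 50 after the start. Sites of the intestinal factor HNF4 were searched as CAAAGTCCA. The letters for factors of the CDX family were TTTATG, those for factors of the GATA family AGATAA and those for the AP-1 dimer TGANTCA. SP1 and KLF factors were searched by the GC box with the letters GGGCGG and by the box named CACCC after its letters. The core promoter element known as the TATA box was searched as TATAAA, and factors of the ETS family by the letters CCGGAA. Both strands were searched, and each match is in capitals.
MUC13 (chr3:124934702-124935001, minus strand): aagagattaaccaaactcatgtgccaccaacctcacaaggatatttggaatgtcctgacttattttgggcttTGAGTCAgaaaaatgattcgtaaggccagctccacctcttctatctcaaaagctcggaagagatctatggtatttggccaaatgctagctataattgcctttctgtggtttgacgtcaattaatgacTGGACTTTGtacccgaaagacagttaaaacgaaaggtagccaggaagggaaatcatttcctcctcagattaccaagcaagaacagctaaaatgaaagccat
MUC3A (chr7:100949284-100949583, plus strand): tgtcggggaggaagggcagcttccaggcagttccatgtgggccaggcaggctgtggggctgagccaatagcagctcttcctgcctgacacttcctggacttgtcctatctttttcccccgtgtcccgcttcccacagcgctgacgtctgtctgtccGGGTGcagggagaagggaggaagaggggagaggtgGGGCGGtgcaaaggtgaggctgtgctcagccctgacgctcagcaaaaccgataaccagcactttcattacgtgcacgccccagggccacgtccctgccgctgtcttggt
MUC12 (chr7:100969315-100969614, plus strand): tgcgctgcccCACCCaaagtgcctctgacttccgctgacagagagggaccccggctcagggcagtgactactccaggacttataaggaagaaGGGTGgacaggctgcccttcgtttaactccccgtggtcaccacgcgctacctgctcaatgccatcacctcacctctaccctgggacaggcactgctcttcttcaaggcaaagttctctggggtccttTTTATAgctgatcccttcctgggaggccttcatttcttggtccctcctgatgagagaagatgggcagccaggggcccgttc
MUC17 (chr7:101019831-101020130, plus strand): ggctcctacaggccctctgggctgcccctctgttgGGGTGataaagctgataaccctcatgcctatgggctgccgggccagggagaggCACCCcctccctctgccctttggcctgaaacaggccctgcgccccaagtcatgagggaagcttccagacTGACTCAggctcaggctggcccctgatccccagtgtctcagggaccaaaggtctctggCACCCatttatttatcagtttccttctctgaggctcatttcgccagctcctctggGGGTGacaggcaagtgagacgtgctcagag

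The MUC13 window held 1 HNF4 site and 1 AP-1 site, and its GC content was 41.0%, against a median of 58.3% over 27305 RefSeq promoters. The HNF4 site occurred in 0.4% and the AP-1 site in 7.8% of these promoters. The 3 windows on chromosome 7 had 57.7% to 61.7% GC and no HNF4 match. They shared CACCC boxes, with 1 in MUC3A, 2 in MUC12 and 4 in MUC17, a motif found in 58.9% of promoters. MUC3A also had 1 GC box (44.6% of promoters), MUC12 1 TATA box (12%) and MUC17 1 AP-1 site. No CDX (11%), GATA (10.5%) or ETS (17.6%) match was found in the 4 windows, which says only that these letters were not there. The files hold no measurement of binding at these sites. Of the factors named for these motifs, HNF4A had 91.8 to 133 normalised counts per kb and CDX2 4.601 to 9.77. Not divided by length, KLF5 averaged 11086 normalised counts in SW480-45 and 12259 in SW480-NC. KLF4 averaged 376 and 717 (adjusted p 0.226 in limma). GATA4 and GATA6 matched no row, and levels of SP1, AP-1 and ETS factors are not given here.

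Genes around the membrane mucins were described by lists, here and in the next paragraphs. Over all 21703 features tested, 0.802% passed in limma, 16.2% had an unadjusted p under 0.05 and 23.4% did not overlap between the lines. edgeR called 136 of these features and DESeq2 756. Whether a list exceeded these shares was not tested. Among the secreted mucins, 4 of 6 had a row and only MUC5AC, a gel-forming mucin typical of gastric and airway epithelium, had enough reads for a test. It had 109.7, 139 and 92.3 normalised counts in SW480-45 and 372, 377 and 379.6 in SW480-NC, with no overlap. MUC5AC was downregulated to 30.2% of the control level (log2 difference -1.74, 95% interval -2.12 to -1.35, adjusted p 0.00838 in limma). Whether it differed from the membrane mucins in its response was not tested. The gel-forming mucins MUC6 and MUC5B averaged 7.04 to 8.75 normalised counts in both lines, and MUC2, the main gel-forming mucin of the colon, averaged 2.46 and 4.91.

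Of the other transmembrane mucins and mucin-like proteins, 4 of 7 had a row and 3 were tested. None passed in limma or edgeR, 1 had an unadjusted p under 0.05 in limma, and 1 passed in DESeq2. CD164, a sialomucin, had a log2 difference of 0.18, MCAM, an adhesion molecule, of 0.57 (adjusted p 0.104 in limma) and MUCL3, a mucin-like membrane protein, of -0.16. Of 17 partners and sheddases of membrane mucins, 13 were tested, 5 with a value above 0 and 8 below, with a median of -0.05. Only MET, the receptor for hepatocyte growth factor, passed in limma, with 6 at an unadjusted p under 0.05, 6 without overlap between the lines, 0 calls in edgeR and 3 in DESeq2. It averaged 24236 ± 728 normalised counts in SW480-45 and 30759 ± 1131 in SW480-NC (SD, n = 3), a log2 difference of -0.34 (adjusted p 0.0408 in limma). The call was lost without SW480-45 replicate 1, 2 or 3 or SW480-NC replicate 1 or 2, with adjusted p-values of 0.0831 to 0.174, and in edgeR (0.0542). The galectin LGALS3 and the receptors ERBB2 and EGFR, named here after their values were seen, had -0.69, 0.45 and -0.27, with adjusted p-values of 0.0814, 0.116 and 0.127 in limma. LGALS4, a galectin that binds glycans at the apical membrane, and the protease ADAM9 had values of -0.06 and 0.04.

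The brush border list had 8 tested genes of 11, with 4 above 0, 4 below 0, a median of 0.04 and 0 calls in limma, against 3 at an unadjusted p under 0.05, 0 in edgeR and 1 in DESeq2. EPS8, VIL1 and PLS1, which organise the actin core of microvilli, had log2 differences of -0.10, 0.20 and -0.55. Of 16 enzymes that start or extend mucin-type O-glycans, 12 were tested, 10 of them below 0, with a median of -0.06 and 0 calls in limma, 3 at an unadjusted p under 0.05 and 0 in edgeR and DESeq2. The sialyltransferase ST3GAL1 had -0.18, and the GalNAc-transferases GALNT2 and GALNT3 had -0.03 and -0.41. Of the epithelial transcription factors, 7 of 11 were tested, 6 of them below 0, with a median of -0.19 and 0 calls in limma, 2 at an unadjusted p under 0.05, 0 in edgeR and 1 in DESeq2. KLF5 and STAT3 had -0.14 and 0.04.

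The summed level of the colon epithelium markers, over the 8 of 10 genes with a row, was 123150 to 132077 normalised counts in SW480-45 and 141385 to 150924 in SW480-NC, without overlap. KRT8 alone gave 75512 and 87410.3 of this on average. Of the 7 tested, 6 were below 0, with a median of -0.21, and 1 passed. KRT20, a keratin of differentiated colon epithelium, fell from 7952 ± 619 to 4541 ± 82.3 normalised counts (SD, n = 3; log2 difference -0.81, adjusted p 0.00719 in limma). KRT8, EPCAM and LGALS4 had -0.21, -0.09 and -0.06, and VIL1, the 1 marker above 0, had 0.20. Of the 7 tested, 4 did not overlap between the lines, against 23.4% of all features tested. KRT8, EPCAM and KRT20 were lower in every knockdown library, and VIL1 was higher. The part of these markers in the values of MUC12 and MUC3A was not tested. Markers of fibroblasts summed to 280 to 387 normalised counts in SW480-45 and 229 to 264 in SW480-NC, nearly all from COL1A1, and those of endothelium to 28.0 to 43.2 and 12.6 to 26.5. DCN, COL3A1, PTPRC, CD3E and CD68 matched no row, CD79A had a mean of about 3 normalised counts in both lines, and 2 of 4 fibroblast genes and 1 of 3 endothelial genes with a row averaged under 10.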

How the data were processed

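Total RNA of SW480-45 and SW480-NC cells was sequenced in 3 libraries each after preparation with a NEBNext Ultra kit. The submitters' processing notes name bcl2fastq, HISAT2 and DESeq2 with GRCh38, without versions; the counting tool and the annotation are not given in the sources used here. What the authors deposited is a signal for each feature: read counts per gene after division by 1 size factor for the library. Dividing by the step of each library gave whole reads for 100% of the values (tolerance 0.01), and these recovered reads served edgeR 4.0.16 and DESeq2 1.42.0 as alternatives. Intervals and floors from reads cover counting error only.

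Lines were compared with limma 3.58.1 (R 4.3.3), with a trend of the variance on intensity, after log2 transformation of normalized counts with a pseudocount of 1. The 21703 features whose mean reached 10 entered, and Benjamini-Hochberg adjustment ran over all of them. A fold change on this scale understates that of low genes. Ratios were tested by two-sided exact permutation (scipy 1.17.1). Plots were made in Python 3.11.15 with matplotlib 3.10.9. The limma, edgeR and DESeq2 fits were tested on simulated counts. Libraries of 1 line differed far beyond sampling noise (chi-square per feature 21.7 to 26.6), so none was a repeat deposit. The methods give the 3 libraries of a line as independent experiments, each on the same stable line. Same-numbered libraries did not deviate together (correlation of deviations -0.020 to 0.0074). This cannot tell whether they were handled in the same round, which is not given in the sources used here.

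The named genes were the members, HPSE, and list genes that passed an adjusted p of 0.05 or were the 3 most abundant of their list, with tested genes within 250 kb named only where they passed, and the 3 genes most like the member with the smallest adjusted p. Other genes were named outside this rule, among them LGALS3, ERBB2, EGFR, MUC2, HNF4A, CDX2 and KLF4. The members, lists and tests were chosen with earlier results of these data known. Alternatives were a pseudocount of 5, no filter, a mean of at least 50, quantile normalization, no intensity trend, Ensembl identifiers only, a replicate block, each library left out, edgeR, DESeq2 and other gene lengths. No column of another sample was in the table. Protein sequences were not used here, and 1 list gene that the rule names is not reported here.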

Additional observations from a re-analysis of the deposited data

How the results depend on the processing

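The count of membrane mucins called was 0 under all 15 alternatives, and MUC13, MUC3A, MUC12 and MUC4 kept their direction in each. Log2 differences ranged from 0.05 to 0.14 for MUC13, -0.24 to -0.05 for MUC3A, -0.33 to -0.12 for MUC12 and 0.10 to 0.29 for MUC4, and the lowest adjusted p of a member was 0.343, for MUC12. The median of the 4 genes ranged from -0.05 to 0.02. No order by level per kb changed with 3 other lengths. The weakest MUC12 value came without SW480-45 replicate 1, and the weakest MUC3A value without SW480-45 replicate 3. Without a filter on low values, MUC15 and MUC17 had adjusted p-values of 0.705 and 0.644 in limma.

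The number of features called depended on the method, from 174 as reported to 11 without the intensity trend and 756 with DESeq2. With a single library left out it was 36 to 104. With the replicate block it was 12, a fit in which MUC5AC, KRT20, MET and PBXIP1 also missed the threshold (adjusted p 0.0585, 0.0610, 0.193 and 0.185) and no membrane mucin passed. MUC5AC, KRT20, MET and PBXIP1 missed it without the intensity trend too (0.0704, 0.0859, 0.201 and 0.136). HPSE (log2 difference -0.83 in each) passed without a filter (adjusted p 0.0451), at a mean of at least 50 (0.0460), with Ensembl identifiers only (0.0462) and with DESeq2 (-0.83, 0.000948). The cause was not tested. MUC4 rests on 139 to 169 reads per line, MUC17 on 10 to 24 and MUC15 on 0 to 8, and a count of 0 allows up to 3 reads.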
